A study of Mus musculus with 12 samples.

Results

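The 7 genes described here encode immune checkpoint molecules and cytokines that antibody-secreting cells (plasmablasts and plasma cells) can use to restrain other immune cells. They are Lag3, Cd200, Cd274, Pdcd1lg2, Il10, Ebi3 and Tgfb1, 7 of the 32285 genes listed in the deposited matrices, and they were taken by symbol. Their UMIs (unique molecular identifiers, counts of captured RNA molecules) were read in barcodes with at least 1000 UMIs outside immunoglobulin genes, in which 1 light-chain V gene held at least 50% of all light-chain V UMIs. This rule kept 8715 of 39949 barcodes called as cells. Cells were divided by tissue, by their leading heavy-chain constant gene, and by whether they held a UMI of Mki67 or Top2a, genes of dividing cells ("cycling" below).

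Such cells were sorted from 3 tissues (bone marrow, spleen, thymus) of mice of both sexes at 3 months of age. All mice were C57BL/6 carrying Prdm1-eYFP, a fluorescent reporter of Prdm1, the transcription factor that drives plasma cell differentiation, and no group received a treatment. Sorted cells were B220+/-, CD138HI, IgD-, CD90.2- and eYFP+, so the sort was set to leave out cells without reporter signal. Each of the 6 gene expression libraries came from a pool of 3 mice, so each combination of sex and tissue is 1 library, a tissue has 2 libraries and a sex has 3. The spread between animals within a pool cannot be seen, and the sources used here do not state if 1 pool of mice gave all 3 tissues.

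LAG-3 is an inhibitory receptor that binds MHC class II and is known from exhausted T cells and from a subset of IL-10-producing "natural regulatory" plasma cells. CD200 engages the inhibitory receptor CD200R on myeloid cells. PD-L1 (Cd274) and PD-L2 (Pdcd1lg2) are the ligands of PD-1 on T cells. IL-10 is a secreted inhibitory cytokine, EBI3 is the shared subunit of IL-27 (with p28, Il27) and IL-35 (with p35, Il12a), and TGF-β1 is secreted in a latent form that integrins such as αv release.

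Female libraries gave 1238 (bone marrow), 3567 (spleen) and 107 (thymus) selected cells, and male libraries 1665, 1850 and 288. Their UMIs outside immunoglobulin genes summed to between 264621 in female thymus and 21287170 in female spleen. The 10 antibody-secreting cell markers, among them Sdc1, Prdm1 and Xbp1, all had UMIs in each library. B cell markers summed to 424 to 646 CPM (UMIs per 1000000 UMIs outside immunoglobulin genes), most of it Cd37, while Pax5 was at or below 1.4 CPM. T cell markers reached 102 CPM in female thymus and were at or below 30.3 CPM elsewhere. Neutrophil markers stood at 549 CPM in the female and 1363 CPM in the male marrow library and at or below 0.141 CPM in the other libraries. Xist was at 672 to 1629 CPM in the female libraries and at or below 1.7 CPM in the male ones. RNA free in the suspension, estimated from light-chain V genes other than a cell's leading one, was 4.9% to 21% of a library's UMIs and was highest in female spleen. At most 11 selected barcodes were shared by 2 libraries.

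The genes lie apart in the genome, except for the 2 PD-1 ligands (GRCm38, GENCODE annotation, all protein coding). Lag3 is at chr6:124904361-124911705 on the minus strand, Cd200 at chr16:45382135-45409053 on the minus strand, Il10 at chr1:131019845-131024974, Ebi3 at chr17:55952640-55957022 and Tgfb1 at chr7:25687002-25705077, each on the plus strand. Cd274 at chr19:29367455-29388095 and Pdcd1lg2 at chr19:29410919-29471161 are neighbours on the plus strand, 22.8 kb apart. RefSeq start-site windows of 300 bases (250 before and 50 after the start, GRCm38.p6) matched 5 of the 7 genes by symbol. Those of Cd200, Cd274 and Pdcd1lg2 are shown because Cd200 and Pdcd1lg2 were called together in the tissue contrast below while Cd274, the neighbour of Pdcd1lg2, was not. Capitals mark matches to the PRDM1 core motif GTGAAAG on either strand.
Cd200 (chr16:45409004-45409303, minus): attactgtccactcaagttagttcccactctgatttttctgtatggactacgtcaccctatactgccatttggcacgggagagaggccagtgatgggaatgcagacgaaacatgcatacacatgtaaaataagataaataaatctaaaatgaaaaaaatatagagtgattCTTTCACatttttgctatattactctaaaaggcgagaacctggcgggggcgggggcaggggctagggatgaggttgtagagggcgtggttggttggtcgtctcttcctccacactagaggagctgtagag
Cd274 (chr19:29367188-29367487, plus): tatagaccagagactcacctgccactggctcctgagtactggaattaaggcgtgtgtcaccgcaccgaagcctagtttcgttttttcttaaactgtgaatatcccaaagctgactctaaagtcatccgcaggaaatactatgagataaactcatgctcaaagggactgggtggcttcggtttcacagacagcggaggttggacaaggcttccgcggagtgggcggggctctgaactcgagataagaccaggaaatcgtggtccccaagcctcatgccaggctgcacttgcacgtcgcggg
Pdcd1lg2 (chr19:29410669-29410968, plus): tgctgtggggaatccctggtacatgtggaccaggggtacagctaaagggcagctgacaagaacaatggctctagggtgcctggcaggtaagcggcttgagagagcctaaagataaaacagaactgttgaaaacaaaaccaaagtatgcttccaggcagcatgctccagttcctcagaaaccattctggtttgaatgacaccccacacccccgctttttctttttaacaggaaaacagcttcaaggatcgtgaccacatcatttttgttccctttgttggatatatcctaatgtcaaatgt
The Cd200 window held 1 match, on the opposite strand, and the other 4 windows held 0. The motif occurs in 4.24% of 32851 windows of this length. No member window held GAAA followed after any 2 bases by GAAA, a core of interferon response elements (3.44% of windows), on either strand. These are letter matches only and say nothing about binding.

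Of the contrasts fitted, those between isotypes gave the largest differences for the called members. In non-cycling cells, Lag3 was high in IgM cells and low in both switched classes. Cd200 was low in IgG cells, and of the 4 members tested Cd274 was the 1 not called in either. The comparison used 4498 IgM, 320 IgA and 604 IgG cells, summed to 18 profiles of library and class and fitted with edgeR's quasi-likelihood test with library as a block. Of the 7 genes, 4 passed the filter on low counts (Lag3, Cd200, Cd274 and Tgfb1). In all 4332 genes passed, against 5723 and 4671 without the female or male thymus library. Without female bone marrow 2869 passed, and without female spleen 2899. Lag3 passed through its IgM sums, at 99.8 to 207 CPM against at most 29.9 CPM in IgG, the class where it is high. The counts below therefore describe the members that passed and do not test the set. In IgG against IgM, 3 of the 4 members that passed were lower at an adjusted p under 0.05, where 14.6% of 4332 genes were called in either direction and 7.99% were lower. In IgA against IgM, 1 of the 4 was lower, against a background of 8.24% in either direction and 4.11% lower. In IgG against IgA, 1 of the 4 was lower, against 9.28% in either direction and 4.39% lower.

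Markers of other cells also moved with class. The 9 dendritic cell markers summed to 37.9 to 274 CPM in IgA cells, against 0 to 11.4 CPM in IgM and 0 to 12.2 CPM in IgG cells. Most of this was Ccr9, a gut-homing chemokine receptor, with 110 UMIs in IgA cells, and 3 of the 9 markers had a UMI there, while Siglech and Itgax were at 0. B cell markers had a median of 288 CPM in IgA, 474 CPM in IgM and 571 CPM in IgG cells. Among them, Cd37 had medians of 210, 307 and 350 CPM and Ms4a1 of 31.2, 87.6 and 71.4 CPM in the same order. Fcer2a was at 0 in IgA and IgG, and Ciita at 0 in IgA. Pax5 held 3 UMIs in IgA and 14 in IgM cells, at up to 11.0 and 1.38 CPM, with medians of 0 and 0.26 CPM. T cell markers summed to 11.9 to 240 CPM in IgA, 2.45 to 178 CPM in IgG and 3.03 to 36.3 CPM in IgM cells. Of these, Lat was at 6.53 to 171 CPM in IgA cells and at most 1.68 CPM in IgM cells. Trbc2 held 2 UMIs in IgA (1 library) and 6 in IgG cells (2 libraries), with a median of 0 CPM in both. Its highest values were 68.5 CPM in IgA and 148 CPM in IgG cells, against 9.07 CPM in IgM cells. Cd4 had a median of 6.41 CPM in IgA and 0.0643 CPM in IgM cells, while Cd3e, Cd3d and Cd3g were at 0 in IgA. Macrophage markers had medians of 33.6, 49.7 and 62.4 CPM in IgA, IgG and IgM, with Csf1r and Adgre1 at 0 in IgA and IgG. C1qb had a median of 0 CPM in IgA and in IgG, with UMIs in 2 libraries of each class, against 5 libraries in IgM. Only its highest values went the other way, at 34.3 CPM in IgA and 59.2 CPM in IgG against 8.30 CPM in IgM. C1qb held 5 UMIs in all in IgA and 16 in IgG cells. Cd68 had medians of 12.9, 24.0 and 20.8 CPM in IgA, IgG and IgM. Antibody-secreting cell markers had a median of 133955 CPM in IgA, 101323 CPM in IgM and 69436 CPM in IgG cells, most of it Jchain, the joining chain of polymeric IgM and IgA. The part of these markers in the isotype differences was not tested.

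Where values come in pairs, the female library stands first. Lag3 stood at 124 and 133 CPM in marrow IgM cells, at 101 and 117 CPM in those of the spleens, and at 99.8 and 207 CPM in those of the thymuses. In IgA cells the same libraries gave 16.4, 26.1, 22.3, 65.9, 0 and 37.9 CPM, and in IgG cells 16.3, 29.9, 18.6, 17.1, 29.6 and 0 CPM. The IgM values do not overlap those of either switched class, and the highest switched value, in male spleen IgA, rests on 6 UMIs in 20 cells. On the log2 scale, Lag3 in IgA differed from IgM by −2.23 ± 0.24 (adjusted p = 1.6e-09, edgeR) and in IgG by −2.68 ± 0.20 (adjusted p = 4.8e-14, edgeR). Values after ± are approximate SEs throughout, the absolute log2 fold change divided by the square root of the test's F statistic. Over 17 alternatives the IgA difference ranged from −4.4 to −1.9 and the IgG difference from −3.62 to −2.54, with 0 calls lost. Among these, 1 kept only cells whose leading heavy constant gene held 90% or more of heavy constant UMIs. In female spleen that left 27 of 361 IgG, 11 of 147 IgA and 1394 of 1558 IgM cells. Most switched cells there thus also held UMIs of other heavy constant genes. The difference between the 2 switched classes did not pass the test (IgG against IgA, −0.45 ± 0.37, adjusted p = 0.51, edgeR). Within the male thymus library, 0 Lag3 UMIs in 29 IgG cells against 125 UMIs in 170 IgM cells put IgG at least 8.32-fold lower, taking 3 UMIs as the limit for a count of 0.

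A Lag3 UMI was found in 31.0% and 38.0% of marrow IgM cells, 31.2% and 28.3% of splenic ones, and 14.6% and 33.5% of thymic ones. The share among IgG cells was 6.15% and 13.5%, 9.14% and 6.0%, and 8.33% and 0% in the same order. Median depths were 2620 and 2685 UMIs in IgM and IgG cells of female bone marrow and 3780 and 3880 in those of female spleen. With each cell thinned to 1000 UMIs, 11.4% of IgM and 0% of IgG cells held a Lag3 UMI in female bone marrow, and 11.0% and 2.49% did in female spleen. Free RNA was estimated to give 99.8 of the 786 Lag3 UMIs in female spleen IgM cells, and 21.4 of the 35 in IgG cells. In male spleen these estimates were 33.3 of 423 and 4.53 of 7. The IgG UMIs of female and male spleen were thus 1.64 and 1.55 times those expected from free RNA, against 7.87 and 12.7 times in IgM cells. Over all non-cycling IgM cells, 3059 held 0 Lag3 UMIs, 918 held 1, 305 held 2, and 64 held 5 or more. In total 1439 cells held a Lag3 UMI, against 1704 if the same UMIs were spread over the cells in proportion to their depth.

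IgM cells held Cd200 at 59.2 and 61.9 CPM in the marrow libraries, 30.9 and 30.1 CPM in the spleen libraries, and 45.4 and 34.8 CPM in the thymus libraries. In IgG cells it was at 12.2 and 23.9 CPM, 4.78 and 2.45 CPM, and 0 and 8.31 CPM. No IgG value reached the lowest IgM value. Cd200 was lower in IgG than in IgM by −2.51 ± 0.28 (adjusted p = 3.7e-09, edgeR) and lower in IgG than in IgA by −2.02 ± 0.41 (adjusted p = 0.00065, edgeR). The second call was lost with a leading light-chain gene at 90% or more (−1.92, adjusted p = 0.065, edgeR), and Cd200 did not pass the filter without female bone marrow or female spleen. Against IgM, IgA cells gave −0.49 ± 0.25 (adjusted p = 0.24, edgeR), and their 6 values, 11.0 to 103 CPM, span those of IgM. The estimate of free RNA was as large as the Cd200 UMIs seen in spleen IgG cells, with 1.01 times the expected UMIs observed in female and 0.376 times in male spleen, against 5.74 and 5.68 times in IgM cells. The male spleen IgG value, 2.45 CPM, comes from 408180 UMIs in 100 cells, so its ratio carries a large counting error.

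The neighbouring PD-1 ligand genes are given one after the other; the difference between them was not tested. Cd274 in IgM cells was at 30.3 and 29.9 CPM (marrow), 29.1 and 50.2 CPM (spleen) and 45.4 and 68.0 CPM (thymus). It was at 46.2 to 65.9 CPM in the IgA cells of 4 libraries, at 39.2 CPM in male bone marrow, and at 0 in the 11 IgA cells of female thymus. In IgG cells it ranged from 8.14 CPM in female bone marrow to 83.3 CPM in male spleen. Neither difference from IgM passed the test, with 0.61 ± 0.24 for IgA (adjusted p = 0.10, edgeR) and 0.25 ± 0.19 for IgG (adjusted p = 0.43, edgeR). Over the bone marrow and spleen libraries alone, a choice made after seeing the data, Cd274 was higher in IgA than in IgM by 0.75 (adjusted p = 0.043, edgeR), and with cycling and non-cycling cells together by 0.69 (adjusted p = 0.023, edgeR).

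Pdcd1lg2 was at a lower level in IgA and IgG than in IgM cells in each of the 6 libraries. In IgM cells it was at 43.7 and 44.7 CPM (marrow), 21.5 and 21.8 CPM (spleen) and 36.3 and 26.5 CPM (thymus). In IgG cells it was at 4.07 and 23.9 CPM, 4.25 and 0 CPM, and 0 and 16.6 CPM, on 15 UMIs in all. Male bone marrow IgG and female bone marrow IgA, at 23.9 and 22.9 CPM, overlap the IgM values of spleen. It did not pass the filter. Fitted without the filter it was lower in IgG by −2.29 ± 0.33 (adjusted p = 1.2e-09, edgeR) and in IgA by −1.19 ± 0.34 (adjusted p = 0.021, edgeR), where the median over all 16249 genes was −0.14 and −0.19. Over bone marrow and spleen alone it passed the filter and was lower in IgG by −2.39 (adjusted p = 1.6e-06, edgeR) and in IgA by −1.02 (adjusted p = 0.045, edgeR).

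Among the cytokines, Tgfb1 in IgM cells was at 44.7 and 72.9 CPM (marrow), 47.5 and 67.3 CPM (spleen) and 45.4 and 81.3 CPM (thymus). It was lower in IgG cells in 5 of 6 libraries, at 25.5 to 59.9 CPM, and by −0.92 ± 0.16 in the fit (adjusted p = 4.3e-05, edgeR). The exception was female thymus, with 2 UMIs in 12 IgG cells. With a leading light-chain gene at 90% or more it was no longer called (−0.68, adjusted p = 0.12, edgeR). In IgA cells Tgfb1 was at 29.5 to 52.3 CPM (−0.39 ± 0.20, adjusted p = 0.23, edgeR).

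Ebi3 was at 27.2 to 56.1 CPM in IgM cells, 0 to 32.7 CPM in IgA cells and 18.0 to 59.2 CPM in IgG cells, and IgA was below IgM in each library. Fitted without the filter, it was lower in IgA by −1.10 ± 0.28 (adjusted p = 0.0050, edgeR), and IgG gave −0.45 ± 0.19 (adjusted p = 0.22, edgeR). Singled out after its value was seen, the group of 44 cells led by Ighg1 held 30 Ebi3 UMIs, or 143 CPM, against 26.3 to 30.9 CPM in cells led by Ighg2b, Ighg2c or Ighg3. Of these UMIs 26 came from 10 of 36 cells of female spleen and 4 from 3 of 7 cells of male spleen, with up to 7 in a cell.

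Il10 was scarce. Its 201 UMIs, of which 28.5 were expected from free RNA, came from 172 of 8715 cells, or 1.97%, and 102 of them from non-cycling IgM cells at 0 to 6.05 CPM per library. Non-cycling IgA cells held 1 UMI in all, with 1.0 expected from free RNA, and IgG cells 7 (2.08 expected), of which 3 UMIs lay in male thymus. No difference between isotypes passed the test without the filter (IgA against IgM, −2.60 ± 1.06, adjusted p = 0.22, edgeR). A difference in Il10 between classes was not detectable at this depth.

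**Figure D1:**
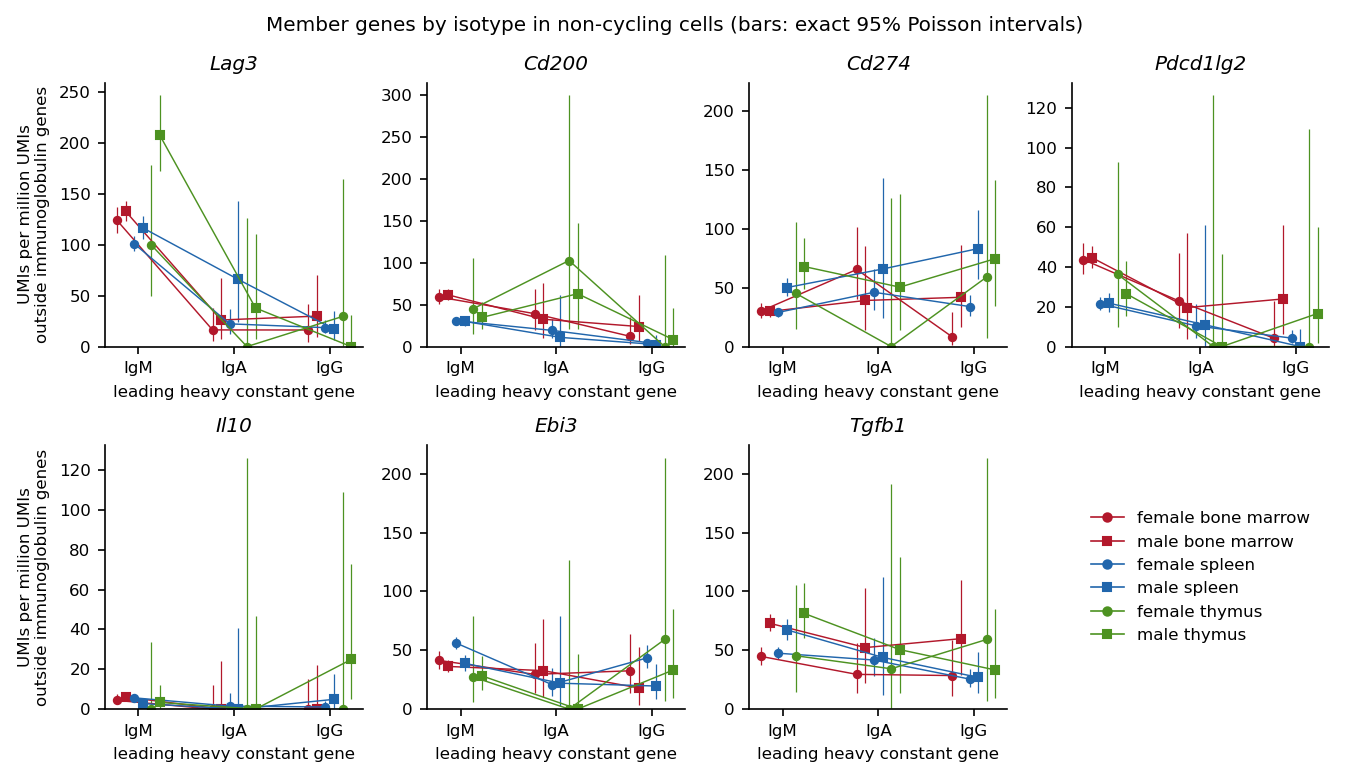
Level of each member gene (vertical axis, CPM) in non-cycling cells by leading heavy-chain constant gene (horizontal axis). Each point is 1 library, lines join the classes of a library, colours give the tissue, circles are female and squares male, and bars are exact 95% Poisson intervals. Lag3 in IgM lies at 99.8 to 207 and in IgA and IgG at 0 to 65.9, while Cd274 has no common direction.

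Among 25 other inhibitory and regulatory surface genes, 8 passed the filter, and in IgG against IgM 3 were lower and 2 higher, where 14.6% of all genes were called. Btla, an inhibitory receptor for HVEM, followed Lag3: it was at 50.2 to 154 CPM in IgM, 0 to 39.3 CPM in IgA and 0 to 29.9 CPM in IgG cells. It was lower by −1.40 in IgA (adjusted p = 2.2e-05, edgeR) and by −2.04 in IgG (adjusted p = 8.6e-11, edgeR). Tigit, an inhibitory receptor for CD155, was instead higher in IgA by 1.11 (adjusted p = 7.2e-07, edgeR) and lower in IgG by −0.55 (adjusted p = 0.019, edgeR). Siglecg, a sialic acid-binding inhibitor of B cell receptor signalling, was higher in IgG than in IgM by 1.72 (adjusted p = 2.9e-08, edgeR), with 30.3 to 178 CPM against 12.8 to 23.2 CPM. Vsir, which encodes VISTA, was higher in both (0.57 in IgA, adjusted p = 0.0050, and 0.47 in IgG, adjusted p = 0.0045, edgeR). The inhibitory Fc receptor Fcgr2b was lower in IgA (−0.51, adjusted p = 0.043, edgeR) and Ctla4 lower in IgG (−0.87, adjusted p = 0.0032, edgeR). The IgG against IgA fit called 4 of the 8, against 9.28% of all genes: Tigit (−1.66) and Ctla4 (−1.36) were lower, and Siglecg (1.11) and Fcgr2b (0.63) higher.

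The partners of the members were mostly near 0. Il12a held 101 UMIs over all selected cells and Il27 held 6, so the subunits that pair with EBI3 were each at or below 3.53 CPM in every library. Fgl1, a soluble LAG-3 ligand, held 1 UMI, Cd200r1 held 44 and Pdcd1 held 134. Of the 7 checkpoint partners, 0 passed the isotype filter. The shares of all genes called were 8.24% (IgA against IgM), 14.6% (IgG against IgM) and 9.28% (IgG against IgA). Of 12 cytokine partners and receptors, 4 passed: the TGF-β receptor Tgfbr1 was higher in IgA than in IgM (0.90, adjusted p = 0.00042, edgeR), and Il10rb (−0.69, adjusted p = 0.0010) and Tgfbr2 (−0.70, adjusted p = 0.0036) were lower in IgG (edgeR). Against IgA, IgG cells were lower in Tgfbr1 (−0.73) and Tgfbr2 (−1.06). Of 13 genes that process or release TGF-β, 3 passed. Itgav, the αv integrin chain, was at 24.3 to 90.7 CPM in IgM, 0 to 37.9 CPM in IgA and 0 to 29.6 CPM in IgG cells, lower by −1.49 (adjusted p = 0.00062, edgeR) and −2.05 (adjusted p = 4.8e-08, edgeR). Nrros, which anchors latent TGF-β on cells, was lower in IgA than in IgM (−0.64) and higher in IgG than in IgA (0.66). Of 12 transcription factors linked to Il10 or checkpoint ligands, 8 passed and 1 was called in each contrast, a share near those over all genes: Irf4 was higher in IgA (0.42, adjusted p = 0.025, edgeR) and lower in IgG (−0.36, adjusted p = 0.042, edgeR) than in IgM.

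Over the 18 profiles, the genes whose log2(CPM + 10) was most like that of Lag3, among 5856 genes of at least 20 CPM on average, were Clec2i (Pearson r = 0.90), Slc3a2 (r = 0.84) and Itgav (r = 0.82). For Cd200 they were Rnase6 (0.84), Adssl1 (0.83) and Naa40 (0.82), and for Pdcd1lg2 Tnfaip3 (0.80), Ccdc28b (0.79) and Itm2c (0.78). Cd274 was most like Qtrt1 (0.92), Hook1 (0.87) and Rassf2 (0.87), and Tgfb1 most like Ppt1 (0.78), Hspa9 (0.76) and Slc7a5 (0.74). Ebi3 was most like Hsdl2, Gtf3c6 and Mgst2 (each 0.91), and Il10 most like Thbd (0.68), Ifi47 (0.65) and Emd (0.61). These are descriptions. Profiles of a library share its pool and free RNA, and the sparse thymus profiles carry the largest counting error.

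Dividing cells carried less of most members. Cycling cells numbered 3287 and non-cycling cells 5428. Of the 7 genes, 5 were lower in cycling cells (Lag3, Pdcd1lg2, Cd200, Cd274 and Ebi3) and 0 were higher, where 24.9% of 9892 genes were called in either direction and 10.5% were lower. The median over the 7 was −0.31 and that over all genes −0.02. Mki67 and Top2a, which define the state, were left out of the fit.

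In non-cycling cells Lag3 was at 107 and 127 CPM (marrow), 80.9 and 106 CPM (spleen) and 69.3 and 160 CPM (thymus). In cycling cells it was at 62.5 and 103 CPM, 36.4 and 56.1 CPM, and 76.6 and 59.5 CPM. Cycling cells were lower in 5 of 6 libraries; the exception, female thymus, rests on 7 UMIs in 36 cycling cells. The log2 fold change was −0.85 ± 0.09 (adjusted p = 1.3e-08, edgeR). Pdcd1lg2 went from 39.1 to 25.5 CPM and from 43.4 to 24.2 CPM in the marrow libraries, and from 17.6 to 7.49 CPM and 19.4 to 15.0 CPM in the spleen libraries. In thymus it was at 23.1 and 10.9 CPM in female and at 22.4 and 33.6 CPM in male cells, and the fitted change was −0.81 ± 0.13 (adjusted p = 2.1e-05, edgeR). Cd200 was lower in cycling cells of each of the 6 libraries, for example at 60.0 and 35.6 CPM in non-cycling and cycling cells of male bone marrow (−0.64 ± 0.11, adjusted p = 3.9e-05, edgeR).

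The changes in Cd274 (−0.31 ± 0.10, adjusted p = 0.025, edgeR) and Ebi3 (−0.30 ± 0.09, adjusted p = 0.013, edgeR) were small and depended on the processing. DESeq2 called neither (adjusted p = 0.088 and 0.056). Without female bone marrow, male spleen or male thymus Cd274 was no longer called, and without male bone marrow Ebi3 was not. Tgfb1 (−0.04 ± 0.08, adjusted p = 0.76, edgeR) and Il10 (−0.01 ± 0.23, adjusted p = 0.98, edgeR) were not called. Tgfb1 was at 42.9 to 85.3 CPM in cycling and 42.3 to 71.9 CPM in non-cycling cells, and Il10 at 0 to 12.9 CPM and 0 to 6.23 CPM, so the states overlap.

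Over all libraries 46.5% of 1130 IgG cells and 36.5% of 7085 IgM cells were cycling (not tested). The IgG share was above the IgM share in the bone marrow and spleen libraries (48.6% against 40.5% in female spleen, which held 703 of these IgG cells) and below it in both thymus libraries (29.4% against 33.3% and 17.1% against 25.1%). In non-cycling cells, IgG cells had less Lag3, Cd200 and Pdcd1lg2. Within IgM cells alone the same 5 genes were lower in cycling cells, Lag3 by −0.83 (adjusted p = 2.8e-10), Pdcd1lg2 by −0.80 (7.3e-06), Cd200 by −0.60 (2.6e-05), Cd274 by −0.33 (0.019) and Ebi3 by −0.31 (0.0074), all by edgeR. Neutrophil markers summed to 1288 and 3458 CPM in the cycling marrow cells, against 97.6 and 94.9 CPM in non-cycling ones. Leaving out every cell with a neutrophil marker UMI, chosen after seeing these values, gave −0.90 for Lag3 and Pdcd1lg2 and −0.59 for Cd200, each still called, while Cd274 (−0.27, adjusted p = 0.091, edgeR) was not. Removing all cells with 2 or more UMIs of another cell type's markers left 516 of 1498 cycling cells in female spleen, and only Lag3 stayed called. The B cell list holds Cd37, at 273 to 461 CPM per library, and its part in this removal was not tested. Cd200 and Pdcd1lg2 lost their calls there (adjusted p = 0.57 and 0.30, edgeR). Over all alternatives their differences ranged from −1.07 to −0.25 and from −1.46 to −0.45. Antibody-secreting cell markers had a median of 75278 CPM in cycling and 100136 CPM in non-cycling cells, and their part in these differences was not tested. Cycling cells were deeper, with a median of 4241 against 3220 UMIs. Thinning each cell to 1000 UMIs also reassigned the state, with 1391 cells left as cycling. In that comparison Lag3 (−1.11) and Cd200 (−0.77, adjusted p = 0.035, edgeR) were called among the 4 members that passed the filter.

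**Figure D2:**
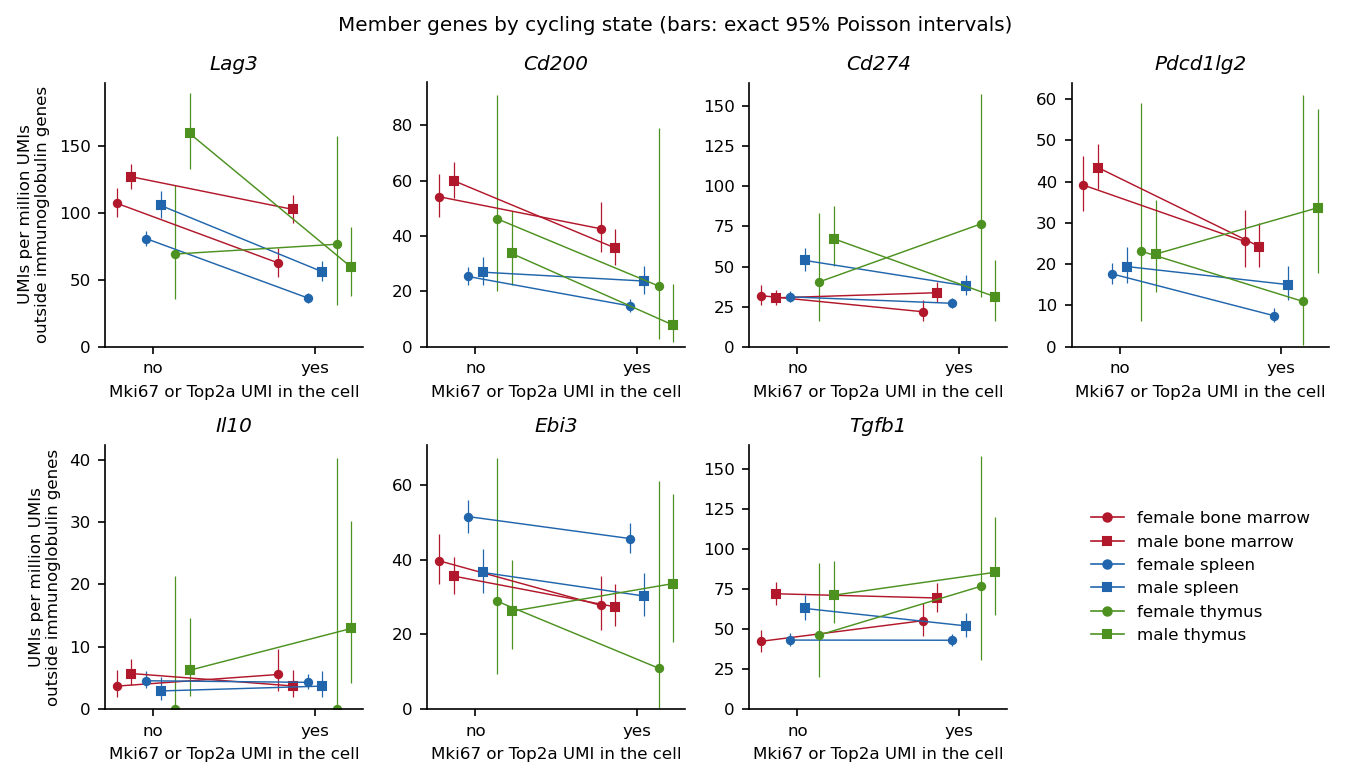
Level of each member gene (vertical axis, CPM) in cells without and with an Mki67 or Top2a UMI (horizontal axis). Each line is 1 library, colours give the tissue, circles are female and squares male, and bars are exact 95% Poisson intervals. Lag3 falls in 5 and Cd200 in 6 of 6 libraries, and Tgfb1 rises in 3 and falls in 3.

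Among genes linked to the members, calls are read against the 24.9% of all genes called in this contrast. Of 5 tested cytokine partners and receptors, 3 were lower in cycling cells: Il10rb (−0.36), Il6st, the shared signalling chain gp130 (−0.35), and Tgfbr2 (−0.27), at adjusted p of 0.00018, 0.00046 and 0.015 (edgeR). Cd80, which binds PD-L1 as well as CD28 and CTLA-4, was higher by 1.05 (adjusted p = 0.00066, edgeR), at 0 to 12.9 CPM in cycling and 0 to 4.8 CPM in non-cycling cells, and was the 1 checkpoint partner called of 2 tested. Of 13 tested surface genes, 3 were higher, Tigit (0.81), Siglecg (0.64) and Cd24a (0.39), and 1 was lower, Btla (−0.46). Itgav was lower by −0.55 (1 of 4 tested TGF-β genes) and Irf1 by −0.25 (1 of 10 tested transcription factors).

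The tissue contrasts placed Cd200 and Pdcd1lg2 higher in bone marrow than in spleen. Over all selected cells Cd200 was at 49.8 and 50.8 CPM (marrow), 19.9 and 25.4 CPM (spleen) and 37.8 and 25.2 CPM (thymus). Pdcd1lg2 was at 34.0 and 36.2 CPM (marrow), 12.4 and 17.3 CPM (spleen) and 18.9 and 26.1 CPM (thymus). For both genes the bone marrow values lie above all others. In spleen against bone marrow Cd200 was lower by −1.15 ± 0.25 (adjusted p = 0.019, edgeR) and Pdcd1lg2 by −1.24 ± 0.25 (adjusted p = 0.011, edgeR). These were 2 of 7 members called, both lower, where 0.436% of 11239 genes were called in either direction and 0.365% were lower in spleen.

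These calls rest on 2 libraries a tissue and 2 residual degrees of freedom, and they did not hold in DESeq2 (−1.13 and −1.23, adjusted p = 0.78 and 0.68), nor without either bone marrow library (adjusted p = 1.0). The differences themselves moved little, from −1.21 to −1.07 for Cd200 and from −1.34 to −1.12 for Pdcd1lg2 with each library left out. Neutrophil markers were at 549 and 1363 CPM in the bone marrow libraries and at or below 0.141 CPM in spleen. Without cells that held 2 or more UMIs of the narrowed neutrophil, macrophage, T cell or B cell lists, a choice made after seeing the data, the differences were −1.15 for Cd200 (adjusted p = 0.072, edgeR) and −1.21 for Pdcd1lg2 (adjusted p = 0.046, edgeR). Within non-cycling IgM cells the differences were −1.0 for Cd200 (adjusted p = 0.058, edgeR) and −1.04 for Pdcd1lg2 (adjusted p = 0.042, edgeR). That comparison holds the leading heavy constant gene fixed but cycling only in part, since a dividing cell can lack a captured Mki67 or Top2a UMI. Thinning each cell to 1000 UMIs lowered the number of cycling cells from 3287 to 1391. In free RNA Cd200 was at 33.8 and 43.6 CPM in bone marrow and 18.7 and 27.2 CPM in spleen, the same order as in cells. Pdcd1lg2 in free RNA was at 17.3 and 17.4 CPM in bone marrow and 10.2 and 18.8 CPM in spleen, where the groups overlap. After its subtraction the differences were −1.15 and −1.26 and were not called (adjusted p = 0.36 and 0.31, edgeR).

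The differences of the other 5 genes between spleen and bone marrow did not pass the test. Lag3 was at 90.3 and 118 CPM (marrow), 58.0 and 81.9 CPM (spleen) and 71.8 and 127 CPM (thymus; spleen against bone marrow, −0.56 ± 0.29, adjusted p = 1.0, edgeR). The order of its tissues differs between female and male libraries. In the non-cycling IgM cells that carried most of it, the difference was −0.24. Cd274 was at 28.0 and 31.6 CPM (marrow), 29.0 and 46.2 CPM (spleen) and 52.9 and 55.5 CPM (thymus). Ebi3 was at 35.2 and 32.5 CPM, 48.5 and 33.6 CPM, and 22.7 and 28.6 CPM in the same order. Tgfb1 ranged from 43.0 to 75.7 CPM and was higher in the male library of each tissue, and Il10 ranged from 0 in the 107 cells of female thymus to 8.41 CPM in male thymus, on 10 UMIs.

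For thymus, 0 of 7 members were called against bone marrow (0.765% of genes called) and 0 against spleen (0.632%), by edgeR. At an unadjusted p under 0.05 there were 2 (Cd200, −1.05 ± 0.33, and Pdcd1lg2, −0.81 ± 0.34) and 1 (Ebi3, −0.77 ± 0.35), and DESeq2 called 0 in both. The high thymic Cd274 gave 0.58 ± 0.30 against bone marrow (adjusted p = 0.59, edgeR). Without female or male spleen in the fit, Cd200 was called lower in thymus than in bone marrow (adjusted p = 0.023 and 0.019), and without male spleen Ebi3 was called lower than in spleen (−1.21, adjusted p = 0.019, edgeR). T cell markers, at 102 and 30.3 CPM, were highest in the thymus libraries, and their part in these values was not tested. Between male and female libraries 0 of 7 members were called by edgeR, 0 at an unadjusted p under 0.05 and 0 by DESeq2, where 0.427% of genes were called. The largest differences were Ebi3 (−0.46 ± 0.24) and Lag3 (0.35 ± 0.25). Of the related genes, Havcr1, which encodes TIM-1, was lower in spleen than in bone marrow (−2.08, adjusted p = 0.044, edgeR) at 0.9 against 2.6 and 5.7 CPM. Ctla4 was lower in male than in female libraries (−1.17, adjusted p = 0.0086, edgeR).

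**Figure D3:**
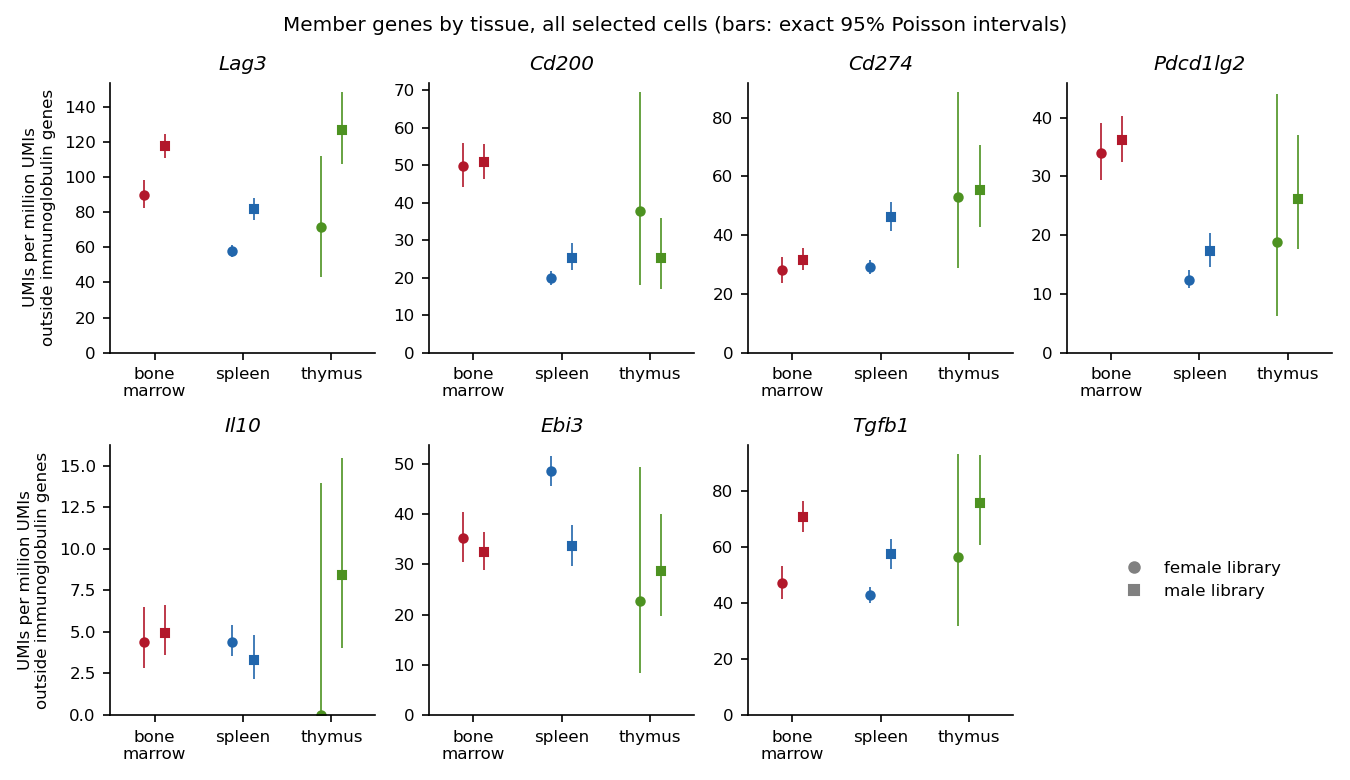
Level of each member gene (vertical axis, CPM) in all selected cells by tissue (horizontal axis). Circles are female and squares male libraries, 1 point a library, and bars are exact 95% Poisson intervals for counting error. Cd200 is at 49.8 and 50.8 in bone marrow and at 19.9 to 37.8 elsewhere.

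Whether the cycling difference itself varied between tissues was tested with an interaction term. By edgeR it called 0 of 7 members, against 0.101% of 9892 genes. Lag3 was the 1 member with an unadjusted p under 0.05 (0.0071, adjusted p = 0.81), its cycling difference being 0.51 log2 units more negative in spleen and 0.70 more negative in thymus than in bone marrow. The thymus value joins libraries of opposite direction: Lag3 was lower in cycling cells of male thymus and not of female thymus.

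Within the 4498 non-cycling IgM cells, member genes were read together in the same cell. The number expected by depth was computed within each library and each of 5 bins of depth. Lag3 and Cd200 shared 288 cells where 252 were expected (1.14 times, above the expected number in 6 of 6 libraries). Cd200 and Pdcd1lg2 shared 128 cells where 105 were expected, and Lag3 and Pdcd1lg2 212 where 182 were, each above the expected number in 5 of 6 libraries. Lag3 with Cd274 (197 against 199) and with Ebi3 (234 against 236) sat at the expected number. Pdcd1lg2 and Ebi3 shared 83 cells against 90.6, below the expected number in 6 of 6 libraries, and the neighbours Cd274 and Pdcd1lg2 shared 79 against 70.6, above it in 5. Cd274 and Ebi3 shared 117 cells against 95.1 (1.23 times), above the expected number in 5 of 6 libraries. Il10 and Ebi3 shared 32 against 17.9 (1.79 times), above it in 4 libraries and below it in 1. Lag3 and Il10 shared 30 cells against 32.8. These ratios are given without a test, since cells of a library are not replicates and the counts are sparse.

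Seen from the Lag3 side, IgM cells with a Lag3 UMI had more Cd200 than those without in each of the 6 libraries. The values were 79.2 and 47.9 CPM in female bone marrow, 74.0 and 52.2 CPM in male bone marrow, 36.1 and 28.2 CPM in female spleen, and 32.3 and 29.0 CPM in male spleen. In male thymus they were 63.3 and 14.3 CPM, and in female thymus, with 7 Lag3 cells, 2 and 3 UMIs. Cd274 was lower in the Lag3 cells of each library, at 26.1 and 32.6 CPM in female and 25.9 and 33.1 CPM in male bone marrow. In female thymus this rests on 0 and 5 UMIs. Within bins of depth, cells with both Lag3 and Cd274 were at the expected number (197 against 199). Lag3 cells were deeper in 5 of 6 libraries, with medians of 4233 and 3371 UMIs in male bone marrow, and CPM values take that into account only on average. Il10 was at 5.6 and 3.7 CPM, 6.2 and 6.0 CPM, 5.4 and 5.8 CPM, and 0.8 and 3.7 CPM in the bone marrow and spleen libraries, so Lag3 cells showed no common direction of Il10.

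**Figure D4:**
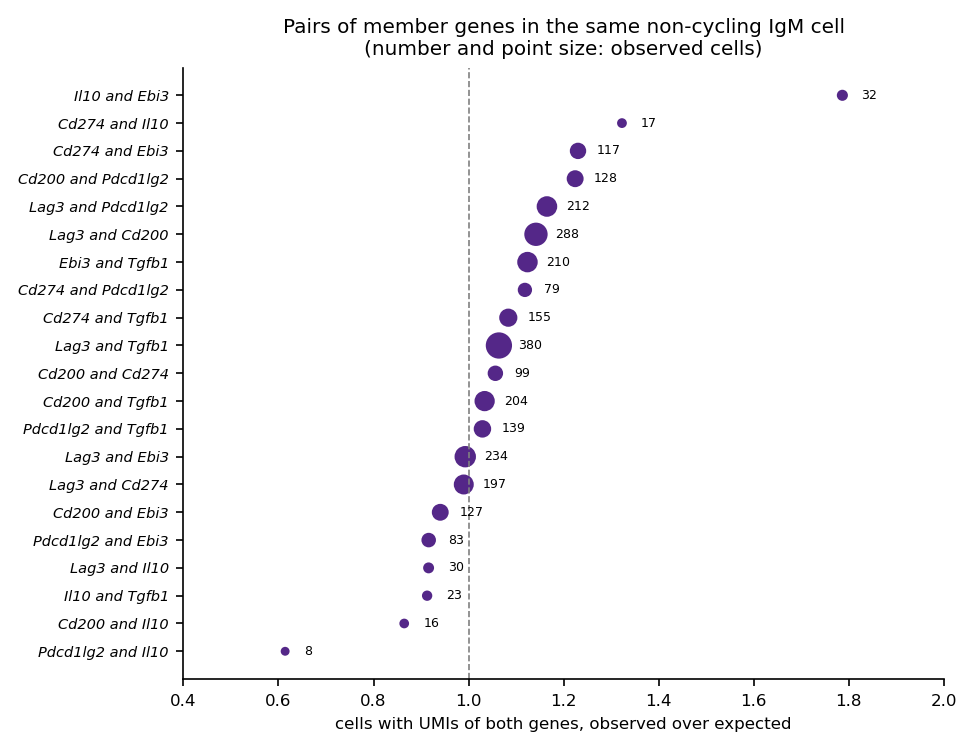
Number of non-cycling IgM cells with UMIs of both genes of a pair, divided by the number expected within libraries and bins of depth (horizontal axis), for the 21 pairs of member genes (vertical axis). The dashed line marks 1, and the printed number and the point size give the observed cells. Pairs of Lag3, Cd200 and Pdcd1lg2 lie at 1.14 to 1.22 and Cd274 with Ebi3 at 1.23. The pairs above 1.3 hold Il10 and rest on 32 or fewer cells.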

How the data were processed

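Groups were taken from the labels. The deposited matrices hold UMI counts per gene and barcode, not normalized. Per the file headers, Cell Ranger 6.0.2 wrote the filtered and Cell Ranger 4 the raw matrices; per the submitters' processing notes the build was mm10 (GRCm38). Values of barcodes in both were equal. The 6 VDJ libraries were not used here.

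Counts were summed per library, per library and class (IgM, IgA, IgG) or per library and state, for sums of at least 10 cells. They were tested with edgeR 4.0.16 (R 4.3.3; filterByExpr, TMM, quasi-likelihood F-test, Benjamini-Hochberg over all genes that passed, 0.05). Immunoglobulin genes were left out. Tissue and sex were fitted as an additive model, and class and state with library as a block. In the tissue and sex fit, p-values measure the spread left between libraries. For class and state, they measure how the difference varies across libraries, since library is a block. Libraries of the same sex may share a pool of mice, so they may not be separate animals. Doublets were not called. The code was tested on simulated data. CPM intervals are exact 95% Poisson intervals and shares come from UMIs, so both cover counting error only. Free RNA was profiled in barcodes of at most 100 UMIs outside the filtered list. DESeq2 1.42.0, other limits on cells and each library left out were alternatives.

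The members and gene lists were chosen with earlier results of these data known. Named genes were the 7 members, for each list at most 5 called genes per contrast by size, and for each member with at least 100 UMIs the 3 genes of highest correlation; 1 gene that the rule names is not reported here.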

Additional observations from a re-analysis of the deposited data

Results flagged for a closer look

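For 2 genes, the difference between non-cycling IgA and IgM cells had opposite directions in thymus and in the other tissues, in each library concerned; the difference between tissues was not tested. On the log2(CPM + 10) scale, the IgA minus IgM difference of Cd200 was 1.49 lower in bone marrow than in thymus (−1.49) and 1.57 lower in spleen than in thymus (−1.57). That of Cd274 was higher in bone marrow than in thymus by 2.02 and higher in spleen than in thymus by 1.85. The thymus values rest on 11 IgA cells in female and 21 in male mice, with 3 and 5 Cd200 UMIs and 0 and 4 Cd274 UMIs. Cd274 was at 0 in IgA and 45.4 CPM in IgM cells of female thymus, and at 50.5 and 68.0 CPM in those of male thymus. Most of its thymus difference thus comes from the female library.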

How the results depend on the processing

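Counts of members called moved as follows. IgG against IgM (3 of 4 tested) gave 4 without the filter, over bone marrow and spleen alone and with cycling cells included, 2 of 4 at 90% light chain (Tgfb1 lost), 2 of 3 tested after free RNA subtraction and without cells carrying other-type markers, 1 of 1 tested with a leading heavy constant gene at 90% or more, and 1 to 3 with each library left out, the lowest without female bone marrow or female spleen, when 1 and 2 members passed the filter. IgA against IgM (1) gave 4 over bone marrow and spleen alone (chosen after seeing the data), 4 with cycling cells included, 3 without the filter, 2 at 2000 UMIs, and 1 to 2 leaving out a library, 2 without male bone marrow or either thymus library. IgG against IgA (1, Cd200) gave 0 at 90% light chain, where Cd200 was tested and lost its call. It also gave 0 after free RNA subtraction, at 90% heavy chain and without cells carrying other-type markers, and 0 to 1 leaving out a library, the lowest without female bone marrow or female spleen; in each of these 0 counts Cd200 did not pass the filter, so they do not test its call. Cycling (5) gave 4 after free RNA subtraction, at 90% light chain (of 6 tested), with narrowed marker lists and without cells carrying a neutrophil marker, 3 with DESeq2, 2 after thinning (of 4 tested), 1 without cells carrying other-type markers (of 6 tested), and 4 to 5 leaving out a library; Cd274 lost its call in 10 of 19 alternatives. Spleen against bone marrow (2) gave 0 with DESeq2, after free RNA subtraction, thinning, at 90% light chain, without cells carrying other-type markers, and in cycling cells alone; 0 in non-cycling IgG cells, where Cd200 and Pdcd1lg2 did not pass the filter; 1 in non-cycling IgM cells and with narrowed marker lists (chosen after seeing the data); and 0 to 2 leaving out a library. Thymus against bone marrow and against spleen (0) gave 0 to 1 leaving out a library, male against female (0) gave 0 leaving out a library, and 1 was called in thymus against spleen and male against female without cells carrying other-type markers (Ebi3, −2.01 and −0.85). The causes were not tested.

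Of 776 values of single members under an alternative, 689 kept their direction and side of the threshold, 35 lost a call, 7 gained one and 45 changed sign, of which 0 belonged to a called difference. With each library left out, changed signs fell within these ranges. For thymus against bone marrow Il10 ranged from −8.57 (without male thymus, where thymus held 0 UMIs) to 0.77 and Tgfb1 from −0.25 to 0.08. For thymus against spleen Lag3 ranged from −0.20 to 0.53, Cd200 from −0.06 to 0.37, Il10 from −8.31 to 1.03 and Tgfb1 from −0.13 to 0.34. For spleen against bone marrow Il10 ranged from −0.81 to 0.30, Ebi3 from −0.13 to 0.67 and Tgfb1 from −0.43 to 0.03. Il10 ranged from −0.41 to 0.28 for male against female and from −0.11 to 0.18 for cycling, and Tgfb1 from −0.11 to 0.03 for cycling. Without cells carrying other-type markers, Lag3 changed to 0.03 for thymus against bone marrow, Cd200, Pdcd1lg2 and Tgfb1 to −0.42, −0.30 and −0.20 for thymus against spleen, and Pdcd1lg2 to −0.06 for male against female. With narrowed marker lists Il10 changed to −0.13 (thymus against bone marrow) and 0.11 (cycling). In non-cycling IgM cells Lag3 (0.08) and Il10 (−1.10) changed for thymus against bone marrow, Il10 (−0.79) and Tgfb1 (−0.04) for thymus against spleen and Pdcd1lg2 (−0.19) for male against female, and in IgG cells Cd274 (−0.10) for thymus against spleen. In cycling cells Tgfb1 (0.13, thymus against bone marrow) and Cd200 (−1.09, thymus against spleen) changed, and after thinning Tgfb1 (0.14) and Pdcd1lg2 (−0.28) in the same contrasts. At 2000 UMIs Cd200 (−0.0075, thymus against spleen) and Pdcd1lg2 (−0.01, male against female) changed. At 90% light chain Lag3 (−0.44) and Cd200 (−0.04) changed for thymus against spleen, Pdcd1lg2 (−0.04) and Il10 (0.19) for male against female, and Lag3 (1.71) and Tgfb1 (0.13) for IgG against IgA. Il10 for cycling changed to 0.06 with DESeq2 and 0.02 after free RNA subtraction.

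After thinning, no member passed the isotype filter, and non-cycling IgA cells alone gave no tested member by tissue. Class and state were compared within libraries, with library as a block, and tissue with sex as a term; the labels give no replicate numbers, so no fit with a further block was made. The thymus sums are the smallest, and counts of a few UMIs there, and of Il10 in any library, limit what was detectable.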

Other observations

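Levels by isotype among cycling cells, which the isotype fits on non-cycling cells left out, are given here by library and without a test. Lag3 was at 45.5 to 110 CPM in IgM cells, 0 to 33.5 CPM in IgA cells and 0 to 20.1 CPM in IgG cells, and both switched classes were below IgM in 6 of 6 libraries. Cd200 in IgG cells (0 to 9.68 CPM) was below IgM (6.85 to 49.1 CPM) in 6 of 6 libraries, while IgA was below IgM in 3 and above it in 3. Pdcd1lg2 was below IgM in 6 of 6 libraries in IgG cells and in 5 of 6 in IgA cells. Cd274 in IgA cells was above IgM in 5 of 6 libraries. The cycling cells numbered 2587 IgM, 171 IgA and 526 IgG, of which 65.9%, 65.5% and 81.0% came from spleen, and many of the switched values rest on 0 to 4 UMIs. Among the non-cycling IgG cells, Lag3 was at 9.52 CPM in the 44 cells led by Ighg1, on 2 UMIs, and at 18.2 to 19.5 CPM in cells led by Ighg2b, Ighg2c or Ighg3.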
